A study of Homo sapiens with 24 samples.

Results

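Ribosome footprints of K562 cells carrying the control guide sgGal4 were compared between day 14 and day 0. The libraries were chosen by their labels alone, with no measured value, and they are 4 of the 24 libraries of the series. Day 14 and day 0 were each represented by 2 libraries. K562 is an established human chronic myelogenous leukaemia line that expresses the BCR-ABL fusion kinase and part of the red cell programme. All cells carried an inducible CRISPR interference system, in which a catalytically dead Cas9 repressor is led by a guide RNA to a promoter, and the labels give doxycycline at 50 ng/ml to induce it. The guide sgGal4 stands for a yeast sequence and serves as the control for sgDDX3, which is aimed at the RNA helicase gene DDX3X. Doxycycline is named in the labels of day 0 samples as well, and no label says if it had been added by then. No label says that replicates are separate cultures, so the p-values reflect the spread among these libraries alone, and that spread may be technical. Day, time in culture and exposure to doxycycline cannot be told apart in this comparison. Beside it stand the 2 sgGal4 footprint libraries of day 3, 4 cytosolic RNA-seq libraries of sgGal4 cells at day 14 and day 0, and 4 footprint libraries of sgDDX3 cells at the same days.

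Ribosome profiling sequences the short stretches of mRNA that a ribosome shields from nuclease, so that reads over a coding sequence measure how much of that mRNA was occupied by ribosomes. A change of footprints can come from a change of mRNA, of ribosomes per mRNA, or of both, and RNA-seq of the same cells separates them. In leukaemia lines, the mRNAs of amino acid supply, glycolysis, histones and cytokine signalling are among those known to follow growth state and nutrients.

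The day 14 libraries held 9823121 and 9142957 counts, and the day 0 libraries held 13346762 and 15240512, so both day 14 libraries were shallower. A count of 0 allows up to 3 counts, which is at most 0.328 CPM in these 4 libraries. CPM is the count set against library size, with TMM factors applied. Limits and intervals of this kind cover counting error only. Protein-coding genes took 66.2% and 63.9% of counts at day 14, against 65.6% and 66.4% at day 0. Spliceosomal snRNA genes took 11.9% and 14.8% at day 14, against 11.9% and 12% at day 0, so day 14 replicate 2 stood apart in that share. The median difference between the replicates of a group was 0.196 on the log2 scale at day 14 and 0.133 at day 0. Replicates were not copies of each other: their counts differed by more than sampling noise, with a chi-square per degree of freedom of 9.75 at day 14 and 5.5 at day 0.

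DDX3X, the target of the other guide, checks the label of the control. It had 154 and 167 footprint CPM at day 14, against 154 and 151 CPM at day 0, and its log2 fold change was 0.07 ± 0.11 (SE; edgeR adjusted p = 0.789). The erythroid identity of the cells was measured by 8 markers, of which 7 passed the filter on low counts, and their summed level was 983 and 939.5 CPM at day 14 and 894 and 888 CPM at day 0. HBG1 was under 1 CPM in all 4 libraries while its near-identical neighbour HBG2 was at 29.1 and 24.9 CPM at day 14 and 29.1 and 28.9 CPM at day 0. Reads of such pairs may be split by the counting. In bulk libraries, fewer cells of a type and less RNA per cell cannot be told apart. Of the defining megakaryocytic markers, ITGB3, GP1BB, GP9, PF4 and PPBP were under 1 CPM in all 4 libraries, and so were CD14, MPO, ELANE and CSF1R of the myeloid list, CD3D and MS4A1 of the lymphoid list and CDH1 and PECAM1 of the non-haematopoietic list. Summed marker levels were 25.8 and 22.6 CPM at day 14 against 20.2 and 22.1 at day 0 (megakaryocytic), 63.8 and 59.1 against 66.1 and 65.7 (myeloid), 57.4 and 47.6 against 61.2 and 55.6 (lymphoid), and 185 and 176 against 168 and 161 (non-haematopoietic).

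Of 19780 genes tested, 304 had more footprints at day 14 and 184 had fewer, at an edgeR adjusted p under 0.05, and 3417 had an unadjusted p under 0.05. That is 2.47% of the genes tested, with 1.54% higher and 0.93% lower. These shares stand beside every count of called footprint genes in the lists below. Among the called genes, 261 higher and 144 lower ones were protein coding. Changes were larger upward: 123 called genes were at least 2-fold higher at day 14 and 19 were at least 2-fold lower. The median log2 fold change over all genes tested was -0.0093. Between day 3 and day 0, 1.26% of genes were called, 0.703% higher and 0.561% lower. The day 14 calls depended on single libraries. In all 488 called genes the day 14 and day 0 libraries did not overlap. Leaving out 1 library could therefore hardly reverse a direction, and a kept direction is no sign of stability. The count of called genes was 74 without day 0 replicate 1, 43 without day 0 replicate 2, 337 without day 14 replicate 1 and 146 without day 14 replicate 2, and the 488 genes kept their direction in each of these 4 fits. Of the 488 genes, 34 were called in all 4 fits, among them the protein-coding genes SELPLG, PFKFB4, KIT, ARHGDIB, ASNS, JUN, IER3, SGK1, SQSTM1, TF and TMTC2.

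**Figure D1:**
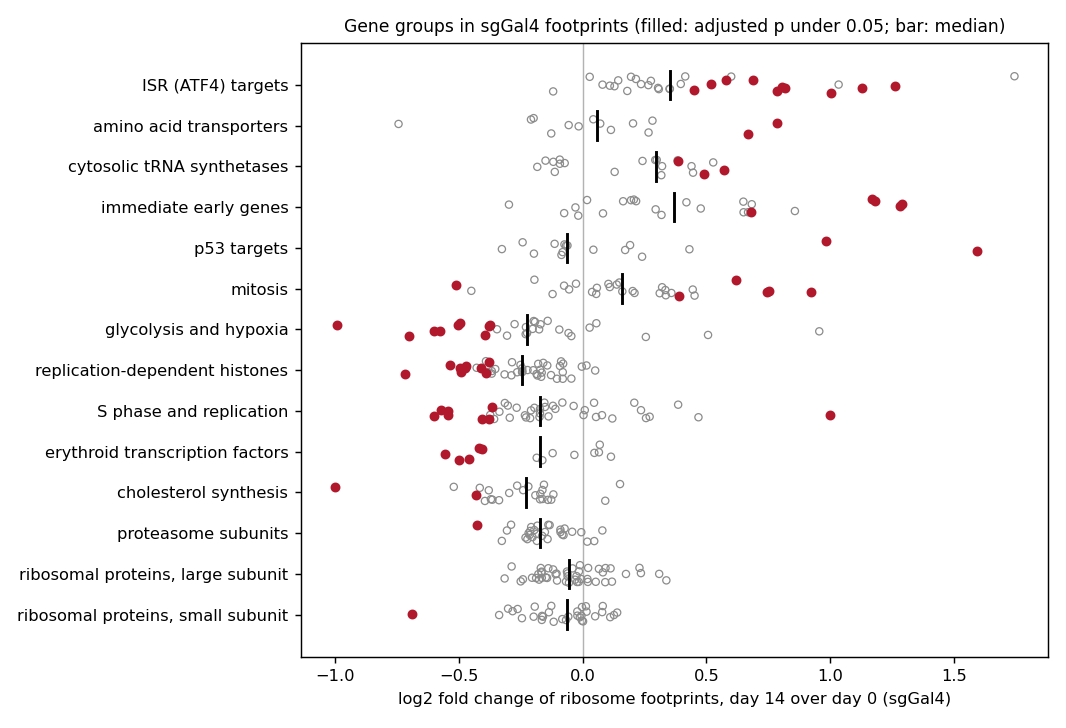
Log2 fold change of ribosome footprints (x axis, day 14 over day 0, sgGal4) for every tested member of 14 gene lists (rows). Filled points passed at an edgeR adjusted p under 0.05, open points did not, and the bar is the median of the list. Filled points lie to the right of 0 for targets of ATF4 and immediate early genes and to the left for glycolysis, histones and erythroid transcription factors.

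Targets of the transcription factor ATF4 that passed the test were higher at day 14. In the integrated stress response, kinases that sense amino acid shortage, misfolded protein or other stress phosphorylate eIF2 alpha, translation of ATF4 goes up, and ATF4 switches on genes for amino acid synthesis and uptake. Of 31 tested targets of this pathway, 10 rose and none fell, and the list's median log2 fold change was 0.35. Over all genes tested, 1.54% were called higher. ASNS, asparagine synthetase (chr7:97851677-97928441, GRCh38), had 260 and 334 CPM at day 14, against 114 and 133 CPM at day 0 (log2 fold change 1.26 ± 0.16, 2.4-fold, adjusted p = 0.0017). PHGDH, the first enzyme of serine synthesis, had 369 and 367 CPM at day 14, against 192 and 175 CPM at day 0 (1.0 ± 0.17, adjusted p = 0.00932). ALDH1L2, a mitochondrial folate enzyme, had 37.9 and 45.8 CPM against 17.4 and 20.8, and MTHFD1L, another of that pathway, had 84.6 and 86.7 CPM against 53.8 and 52.6. In each of these genes both day 14 libraries lay above both day 0 libraries, as did those of all 304 higher genes and of 4564 of the 19780 genes tested, so that the lack of overlap sets none of them apart. The other called members were the stress regulators DDIT3 (0.79 ± 0.14) and TRIB3 (0.82 ± 0.18) and the metabolic enzymes PCK2 (0.81 ± 0.16), SHMT2 (0.52 ± 0.12), PSPH (0.58 ± 0.13) and CTH (0.45 ± 0.11), all log2 fold changes.

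ATF4 itself had 446 and 412 CPM at day 14, against 419 and 392 CPM at day 0 (log2 fold change 0.08 ± 0.10, adjusted p = 0.733). CHAC1, SESN2, PPP1R15A and ATF3, other genes known to follow ATF4, had log2 fold changes of 0.13, 0.22, 0.18 and 0.20 and did not pass. Among 14 amino acid transporters, SLC6A9 (glycine) and SLC1A4 (neutral amino acids) rose, by log2 fold changes of 0.79 ± 0.16 and 0.67 ± 0.16, and none fell. Neither call held when any of the 4 libraries was left out. SLC38A5, an amino acid transporter outside the list, was called lower (-0.55 ± 0.12). Of 20 cytosolic aminoacyl-tRNA synthetases, which load amino acids onto tRNA, SARS1, LARS1 and GARS1 rose and none fell. Each of these calls was lost in some of the fits without 1 library. SARS1 had 300.5 and 285 CPM at day 14, against 197 and 197 CPM at day 0. Day 3 libraries of ASNS stood at 268 and 253 CPM and those of PHGDH at 428 and 354, and the change between day 14 and day 3 did not pass for either gene (adjusted p = 0.809 and 0.931). Without each library in turn, 1, 1, 4 and 4 of the 10 called targets passed (day 0 replicates 1 and 2, then day 14 replicates 1 and 2), and ASNS was the one called in all 4 fits. The RNA fit, which used other libraries, called 22 of 31 targets higher and none lower, with a median of 0.44 on the log2 scale, in a fit where 7.7% of genes were called higher.

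Promoters of 2 of the genes that rose are shown because they hold the letters of the amino acid response element to which ATF4 binds. The 250 bases before a start of each gene in RefSeq (GRCh38.p14) were read 5′ to 3′ along the gene's strand. Capitals mark TGATGNAA, searched on both strands. For ASNS the start used lies inside the gene span given above, so it is not the outer end of that gene. The windows are chr7:97872409-97872658 on the minus strand for ASNS and chr6:150866236-150866485 on the plus strand for MTHFD1L.
ASNS: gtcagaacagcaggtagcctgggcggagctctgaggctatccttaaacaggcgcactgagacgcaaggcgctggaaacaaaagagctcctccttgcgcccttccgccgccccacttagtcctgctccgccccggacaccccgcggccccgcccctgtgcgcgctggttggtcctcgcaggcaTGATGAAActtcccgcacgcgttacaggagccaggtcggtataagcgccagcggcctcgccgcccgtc
MTHFD1L: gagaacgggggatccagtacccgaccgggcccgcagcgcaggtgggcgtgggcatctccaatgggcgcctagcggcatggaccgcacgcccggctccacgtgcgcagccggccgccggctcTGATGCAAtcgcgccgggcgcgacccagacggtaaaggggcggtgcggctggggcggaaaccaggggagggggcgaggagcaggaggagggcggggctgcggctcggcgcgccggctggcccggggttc

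The match began 68 bases before the start used for ASNS and 129 bases before that used for MTHFD1L. Of 25 list genes with a promoter in the table, 5 held the motif, and 350 of 15842 protein-coding genes (2.21%) did. Among the 7 called targets with a promoter, 2 held it and CTH, PHGDH, DDIT3, PCK2 and TRIB3 did not within these 250 bases. The cytosolic synthetases SARS1 and GARS1 held none in this window. A match is a description of letters and shows no binding.

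Of 24 tested immediate early genes, which respond within minutes to hours to growth factors and stress, 5 rose and none fell. Their median log2 fold change was 0.37, and 1.54% of all genes tested were called higher. JUN, a subunit of the AP-1 transcription factor, had 35.6 and 31.7 CPM at day 14, against 16.3 and 13.7 CPM at day 0 (1.17 ± 0.12, adjusted p = 0.000363). IER3, a stress-induced regulator of survival, had 37.2 and 26.9 CPM against 13.5 and 12.8 (1.29 ± 0.15). KLF6, a zinc finger transcription factor, had 43.5 and 36.4 CPM against 25.0 and 24.8, and EGR3 and DUSP5, a transcription factor and a phosphatase of the MAP kinase pathway, rose and were under 4 CPM at day 0. JUN and IER3 were called in each fit without 1 library. MYC and EGR1 did not pass: MYC had 703 and 569 CPM at day 14, against 588 and 548 CPM at day 0.

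Between day 14 and day 3, 2 of these 24 genes and none of the 31 targets of ATF4 rose. IER3 stood at 12.7 and 12 CPM at day 3, and its day 14 over day 3 change passed (1.38 ± 0.15, adjusted p = 0.00181). JUN was at 22.6 and 21.2 CPM at day 3 and also passed that test (0.62 ± 0.12, adjusted p = 0.0362). In that comparison 0.566% of genes were called, 0.273% higher and 0.293% lower.

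Of 16 tested p53 targets, BTG2 and CDKN1A rose, none fell, and the median of the list was -0.06 on the log2 scale. The share of all genes tested that was called higher was 1.54%, for this and the next 2 lists. BTG2, an antiproliferative factor, had 69.4 and 57.2 CPM at day 14, against 32.9 and 31.4 CPM at day 0, and CDKN1A, the p21 inhibitor of cyclin-dependent kinases, had 4.33 and 3.57 CPM against 1.6 and 1.03. Without 1 library BTG2 passed in 3 of 4 fits and CDKN1A in none. K562 cells are known to lack functional p53. SAT1, the enzyme that starts polyamine breakdown, had 17.3 and 20.4 CPM at day 14, against 7.07 and 9.57 CPM at day 0 (1.17 ± 0.20, adjusted p = 0.00937), and was the one of 13 polyamine genes called. Of 17 heat shock genes, HSPA1A and HSPA1B rose, with log2 fold changes of 0.56 ± 0.11 and 0.57 ± 0.10. They are near-identical copies and their reads may be shared.

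In the list for BCR-ABL, STAT5 and cytokine signalling, SOCS1 and CISH rose and KIT fell among 19 tested genes. SOCS1 and CISH, feedback inhibitors that STAT5 induces, had 27.5 and 22.6 CPM and 117 and 102 CPM at day 14, against 12 and 11.6 CPM and 65.9 and 61.0 CPM at day 0. PIM1 and SOCS2, other targets of STAT5, had log2 fold changes of 0.39 and 0.28 and did not pass. KIT, the receptor for stem cell factor, had 52.7 and 58.0 CPM at day 14, against 85.7 and 100.5 CPM at day 0 (-0.75 ± 0.10, adjusted p = 0.0017). KIT was called in all 4 fits without 1 library, and SOCS1 and CISH in 1 each.

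**Figure D2:**
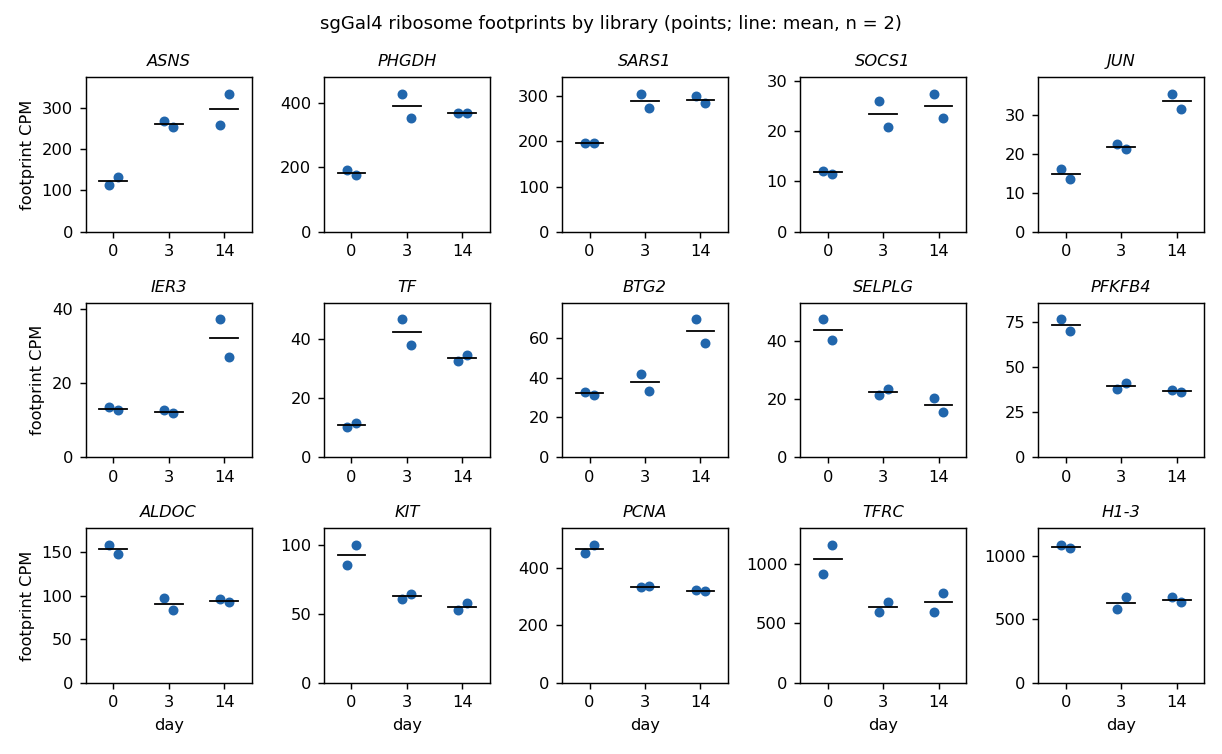
Footprint CPM (y axis, from 0) of 15 genes in each sgGal4 library at day 0, day 3 and day 14 (x axis). Points are libraries and lines are means of 2. ASNS, SARS1 and SOCS1 were high at day 3 and day 14, IER3 was high at day 14, and SELPLG, PFKFB4 and PCNA were low at day 3 and day 14.

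In the list for glycolysis and hypoxia, the genes that passed were lower at day 14. HIF-1 is the transcription factor that induces glucose transporters, glycolytic enzymes and BNIP3 when oxygen is short, and proliferating cells use many of the same enzymes in normal oxygen. Of 29 tested members, 9 fell and none rose, and the median log2 fold change was -0.22. In footprints 0.93% of all genes tested were called lower. PFKFB4, which makes the activator of phosphofructokinase, had 37.6 and 36.1 CPM at day 14, against 76.7 and 70.0 CPM at day 0 (-0.99 ± 0.09, 1.99-fold lower, adjusted p = 9.97e-05). The aldolase ALDOC had 95.9 and 92.9 CPM at day 14, against 159 and 149 CPM at day 0 (-0.70 ± 0.10). LDHA, which turns pyruvate into lactate, had 444 and 475 CPM against 685 and 710. The mitophagy receptor BNIP3 had 27.6 and 27.9 CPM against 42.4 and 40.4. PGAM1, PDK1, GPI, SLC2A3 and ALDOA fell by 0.37 to 0.50 on the log2 scale, and VEGFA, which HIF-1 also induces, had a log2 fold change of 0.51 and did not pass. EPAS1, the HIF-2 alpha subunit and outside the list, was called higher (0.46 ± 0.11). RNA called 9 of the 29 lower and 3 higher, in a fit where 8.55% of genes were called lower and 7.7% higher. Of the 9 called in footprints, 1, 2, 6 and 2 passed without day 0 replicates 1 and 2 and day 14 replicates 1 and 2, and PFKFB4 passed each time. Day 3 libraries of PFKFB4 held 38.2 and 41.4 CPM, close to those of day 14, and its change between day 14 and day 3 did not pass (-0.11 ± 0.09, adjusted p = 0.817).

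Promoters of 3 of these genes are given with the letters ACGTG in capitals, a form of the core that HIF-1 and E-box proteins recognise. The letters were searched on both strands, so that a palindromic CACGTG counts once on each. Other forms of the HIF-1 core were not searched. The windows are chr11:18394313-18394562 on the plus strand for LDHA, chr17:28576896-28577145 on the minus strand for ALDOC and chr10:131981924-131982173 on the minus strand for BNIP3.
LDHA: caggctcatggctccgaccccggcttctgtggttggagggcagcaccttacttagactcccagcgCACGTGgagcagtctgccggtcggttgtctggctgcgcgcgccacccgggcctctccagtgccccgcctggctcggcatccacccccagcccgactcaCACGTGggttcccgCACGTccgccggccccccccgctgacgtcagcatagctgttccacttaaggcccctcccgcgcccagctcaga
ALDOC: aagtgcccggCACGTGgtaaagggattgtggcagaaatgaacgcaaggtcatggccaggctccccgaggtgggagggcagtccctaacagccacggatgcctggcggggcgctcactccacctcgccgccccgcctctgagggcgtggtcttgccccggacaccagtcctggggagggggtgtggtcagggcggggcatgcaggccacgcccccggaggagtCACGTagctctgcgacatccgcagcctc
BNIP3: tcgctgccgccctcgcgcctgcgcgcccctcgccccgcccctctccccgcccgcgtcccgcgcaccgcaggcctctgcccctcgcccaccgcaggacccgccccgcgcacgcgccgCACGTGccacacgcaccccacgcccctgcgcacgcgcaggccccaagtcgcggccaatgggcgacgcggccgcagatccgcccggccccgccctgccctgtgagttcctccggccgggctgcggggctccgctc

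LDHA held 5 matches on the 2 strands, ALDOC 3 and BNIP3 2. Of 26 list genes with a promoter, 12 (46.2%) held a match, and 3292 of 15842 protein-coding genes (20.8%) did. Of the 8 called genes with a promoter, 5 held ACGTG, and PFKFB4, PDK1 and PGAM1 did not in these 250 bases. That does not show that they lack a HIF-1 core of another form.

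Of 24 cholesterol genes, 2 fell and none rose, with a median of -0.23 and 22 of 24 estimates below 0. Among all genes tested, 0.93% were called lower and 1.54% higher. The sterol enzyme LSS fell by 0.43 ± 0.10 on the log2 scale. FADS1, a fatty acid desaturase, had 129.9 and 123 CPM at day 14, against 194 and 197 CPM at day 0. Of 13 iron genes, TF rose, TFRC and SLC40A1 fell, and the median was -0.06. TF, which encodes the plasma iron carrier transferrin, had 32.5 and 34.6 CPM at day 14, against 10.2 and 11.7 CPM at day 0 (1.61 ± 0.21, 3.06-fold). TFRC, the transferrin receptor, had 598 and 757 CPM against 921 and 1164, and SLC40A1, the iron exporter ferroportin, had 34.3 and 41.2 CPM against 59.5 and 65.2. TF was called in each fit without 1 library, SLC40A1 in 3 and TFRC in 2.

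Among called protein-coding genes with a mean of at least 10 CPM, the 10 with the lowest log2 fold changes included several for surface proteins of blood cells. SELPLG, the P-selectin ligand of leukocytes, had 20.2 and 15.4 CPM at day 14, against 47.3 and 40.1 CPM at day 0 (-1.29 ± 0.15, 2.45-fold lower, adjusted p = 0.000715). It had the lowest log2 fold change of these genes. The sialic acid lectin SIGLEC6 had 10.6 and 8.55 CPM against 18.8 and 18.5, and the receptor CD300A had 12 and 9.52 CPM against 18.2 and 19.5. ARHGDIB, a regulator of small GTPases in blood cells, had 14.0 and 14.2 CPM at day 14, against 27.1 and 26.6 CPM at day 0, and its estimate stayed between -0.94 and -0.92 when each library was left out. AIF1, NETO2, NAA80 and FAM178B were others of the 10 lowest, with log2 fold changes of -0.79, -0.78, -0.85 and -0.82.

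**Figure D3:**
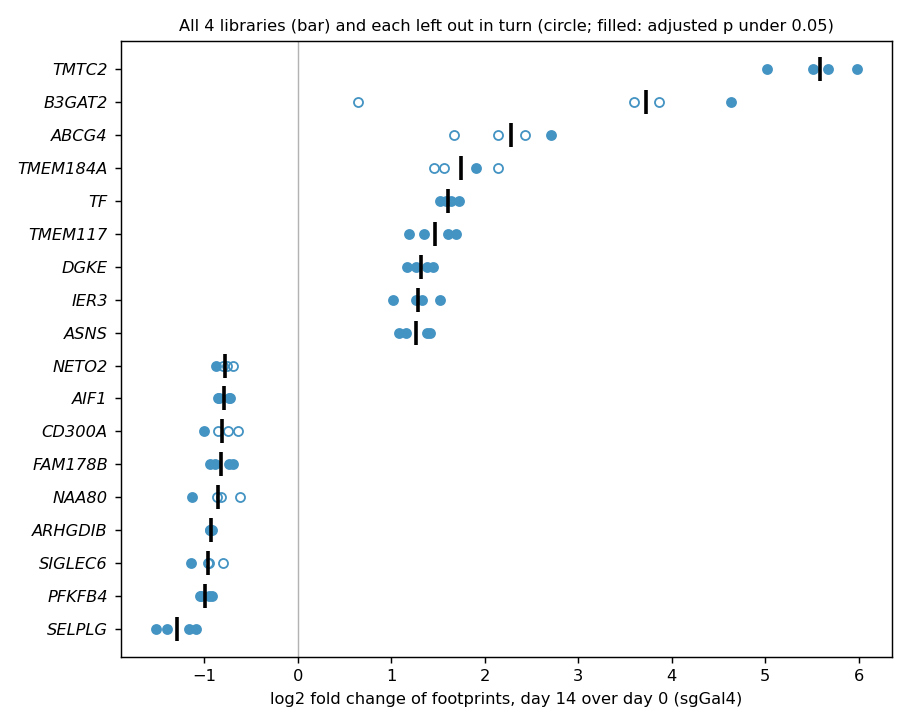
Log2 fold change of footprints (x axis, day 14 over day 0) for 18 of the 20 protein-coding genes with the highest and lowest values and a mean of at least 10 CPM (rows). Bars give the fit with all libraries and circles the fits without 1 of the 4 libraries, filled where the adjusted p was under 0.05. B3GAT2 spread over 0.64 to 4.63, and SELPLG, PFKFB4 and ARHGDIB had 4 filled circles each.

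Replication-dependent histones are made in S phase to package new DNA. Of 44 tested, 9 fell and none rose, the median log2 fold change was -0.24, and 42 estimates were below 0. Among all genes tested, 0.93% were called lower and 1.54% higher. The linker histone gene H1-3 had 675 and 634 CPM at day 14, against 1089 and 1061 CPM at day 0 (-0.72 ± 0.11, adjusted p = 0.00505). H3C1 had 122 and 103 CPM against 165 and 162. Histone genes are close copies of one another and their reads may be shared. Of 42 replication genes, 7 fell and 1 rose. PCNA, the sliding clamp of DNA polymerase, had 321 and 318 CPM at day 14, against 450.2 and 479.8 CPM at day 0 (-0.54 ± 0.08, adjusted p = 0.00624). FEN1, CDC45, TYMS, GINS1, GINS3 and the histone mRNA binding protein SLBP fell by 0.37 to 0.60 on the log2 scale.

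MCM2, a subunit of the replicative helicase, went the other way, with 75.4 and 84.4 CPM at day 14 against 38.5 and 41.3 CPM at day 0 (1.0 ± 0.24, adjusted p = 0.0439), while its RNA changed by 0.38 on the log2 scale. Of 29 mitotic genes, 5 rose and 1 fell, beside 1.54% higher and 0.93% lower among all genes tested. TOP2A, which untangles DNA, had 173 and 217 CPM at day 14, against 105 and 102 CPM at day 0, and TPX2 and KIF2C, spindle proteins, rose by log2 fold changes of 0.74 and 0.75. HMMR and PLK1 also rose, and the checkpoint kinase gene BUB1 had 108 and 119 CPM against 160.2 and 164. Calls in these lists were sensitive to the libraries: 0, 0, 8 and 1 of the 9 histone genes, 1, 0, 4 and 1 of the 8 replication genes and 0, 0, 3 and 1 of the 6 mitotic genes passed without day 0 replicates 1 and 2 and day 14 replicates 1 and 2.

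NFE2, GFI1B, GATA1, KLF1 and LMO2, which drive red cell genes, were called lower among 14 tested factors, with log2 fold changes from -0.55 to -0.41 and a list median of -0.17. GATA1 had 245 and 207 CPM at day 14, against 316 and 283 CPM at day 0, and KLF1 had 43.8 and 35.9 CPM against 60.0 and 52.7. All 5 passed without day 14 replicate 1 and none passed in the other 3 fits. In RNA, 4 of the 14 factors were called lower and 2 higher, with a median of -0.06. Over all genes, RNA called 8.55% lower and 7.7% higher. GATA1 and KLF1 had log2 fold changes of RNA of -0.05 and -0.20 and did not pass. The embryonic globin HBZ had 317 and 285 CPM at day 14, against 222 and 221 CPM at day 0 (0.44 ± 0.09), and was the one of 8 globin genes called. ALAS2, the first enzyme of heme synthesis in red cells, rose (0.50 ± 0.08) and CPOX, a later step, fell (-0.50 ± 0.08), and none of 19 red cell membrane genes passed.

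In footprints, lists of the translation machinery held at most 1 called gene each, beside 2.47% of all genes tested, so these counts set the lists apart in neither direction. None of 47 large-subunit ribosomal proteins was called (median -0.06), and of 32 small-subunit ones RPS10 fell (median -0.06). RNA called 8 of the 47 and 11 of the 32 lower and none higher, in a fit where 8.55% of genes were called lower. RPS10 had 35.3 and 22.6 CPM at day 14, against 47.3 and 46.3 CPM at day 0, and it passed in 1 of the 4 fits without a library. None of 20 elongation factors and other TOP mRNAs was called. EIF3C was the one of 34 initiation factors, with 294 and 285 CPM at day 14 against 210.2 and 165 CPM at day 0, and NOP16 was the one of 31 ribosome biogenesis genes, lower by 0.43 ± 0.10 on the log2 scale. EIF3C has a near-identical copy in the genome, so its value is uncertain. PSMD13 was the one called of 30 proteasome genes, and 27 estimates were below 0 with a median of -0.17. UQCRQ, UQCR11 and NDUFS6 fell among 69 nuclear genes for oxidative phosphorylation, MRPS12 among 75 mitochondrial ribosomal proteins, and none of 13 mitochondrially encoded mRNAs was called. Medians of -0.13, -0.16 and -0.11 in these 3 lists stand beside -0.0093 for all genes tested, and a p that misses the threshold does not show that genes were equal.

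No gene passed among 21 endoplasmic reticulum chaperones and unfolded protein response genes, 25 cytoskeletal genes or 16 snoRNA host transcripts, where the smallest adjusted p-values of edgeR were 0.184, 0.0731 and 0.0862. IFITM2 fell among 22 interferon-stimulated genes, PGD rose and MT1X fell among 21 NRF2 and oxidative stress genes, and IGF2BP3 rose among 14 oncofetal genes. Over all genes tested, 1.54% were called higher and 0.93% lower, so these counts set the lists apart in neither direction. KRT8, of the non-haematopoietic markers, had 53.8 and 42.2 CPM at day 14, against 36.2 and 29.6 CPM at day 0 (0.55 ± 0.12), and its RNA changed by 0.53 on the log2 scale.

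RNA moved with the footprints for most called genes. Of the 304 genes with more footprints, 247 were tested in RNA, where 180 were called higher and none lower. Of the 184 with fewer, 166 were tested, 101 were called lower and none higher. The median log2 change of these higher genes was 0.79 in footprints and 0.55 in RNA, and that of the lower genes was -0.50 in footprints and -0.34 in RNA. The genes were chosen for their footprint change, so these medians were not tested against each other. RNA-seq called 16.2% of its 18287 genes, against 2.47% in footprints, and its biological coefficient of variation was 6.13%, against 9.99% in footprints.

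**Figure D4:**
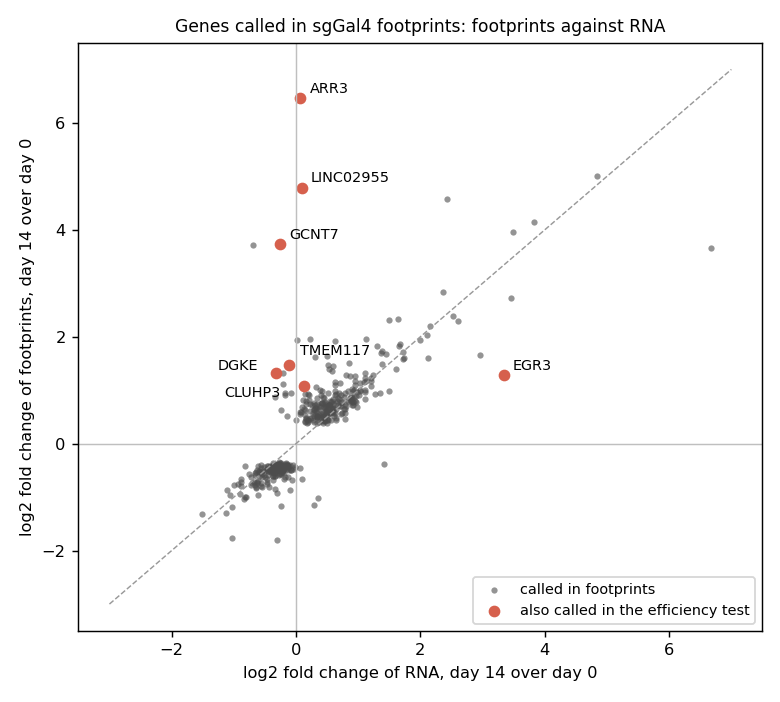
Log2 fold change of footprints (y axis) against that of RNA (x axis), day 14 over day 0, for genes called in footprints and tested in RNA. The dashed line marks equal change. Large points passed the test of translational efficiency, and ARR3, LINC02955, GCNT7, TMEM117, DGKE and CLUHP3 lie near 0 on the RNA axis.

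Footprints relative to RNA were tested as the interaction of assay and day. Of 14853 genes, 8 rose and 10 fell, which is 0.121% of those tested (0.0539% higher and 0.0673% lower). Among protein-coding genes 5 rose and 1 fell. The other 3 that rose and 9 that fell were not protein coding, and their values need not measure translation. DGKE, a diacylglycerol kinase, had 24.4 and 30.4 footprint CPM at day 14, against 10.6 and 11.4 CPM at day 0. Its RNA had 16.9 and 14.7 CPM at day 14, against 20.6 and 18.3 CPM at day 0, so that the efficiency rose by 1.62 ± 0.20 on the log2 scale (adjusted p = 0.000389). TMEM117, a membrane protein, had 33.0 and 47.7 footprint CPM against 13.3 and 15.8, while its RNA had 7.40 and 8.48 CPM against 7.73 and 9.89 (1.56 ± 0.24, adjusted p = 0.00233). DGKE passed in all 8 fits that left out 1 library and TMEM117 in 7 of them. PANK3, a kinase of coenzyme A synthesis, passed too (0.74 ± 0.14) with a fall of RNA of 0.57 on the log2 scale, and was called in 2 of those 8 fits.

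EGR3 had a lower efficiency, since its RNA rose further than its footprints: RNA had 8.56 and 7.53 CPM at day 14, against 0.708 and 0.854 CPM at day 0, and footprints had 6.14 and 5.30 CPM against 2.59 and 2.13. The ribosomal RNAs of mitochondria, MT-RNR1 and MT-RNR2, also passed, by -2.52 and -2.21. For these 2 genes the value is no measure of translation: RNA libraries were depleted of ribosomal RNA and held 166 and 201 CPM of MT-RNR1 at day 14, against 51.9 and 22.2 CPM at day 0.

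Several of the largest footprint gains lay in genes with almost no RNA. Counts per gene do not show where in a gene the reads lay, so these reads need not be ribosome footprints. TMTC2, which encodes a mannosyltransferase of the endoplasmic reticulum (chr12:82686906-83134866, GRCh38), had 41.8 and 83.5 footprint CPM at day 14, against 1.22 and 1.36 CPM at day 0 (5.58 ± 0.39, adjusted p = 1.48e-05), from 415 and 772 reads at day 14 and 16 and 21 at day 0. No RNA read of TMTC2 was counted in the 4 sgGal4 libraries of these days. LINC02955, a long non-coding RNA gene on the same chromosome, had 31.9 and 73.2 footprint CPM at day 14, against 1.75 and 2.00 CPM at day 0, and 0.962 and 0.920 RNA CPM at day 14 against 0.826 and 0.925 CPM at day 0. ABCG4 and TMEM184A, a lipid transporter and a membrane protein, had 15.6 and 32.7 CPM and 78.2 and 101.5 CPM at day 14, against 5.48 and 4.46 CPM and 20.5 and 32.8 CPM at day 0, and each was under 1 CPM in RNA. In each of these 4 genes day 14 replicate 2 was the higher library, the one with 14.8% of counts in snRNA genes, and the part of that difference in these values was not tested. Without 1 library, TMTC2 and LINC02955 passed in 4 of 4 fits and ABCG4 and TMEM184A in 1.

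At day 3, TMTC2 and LINC02955 stood at 44.0 and 62.8 CPM and 32.7 and 46.9 CPM. In sgDDX3 cells TMTC2 had 67.9 and 93.2 CPM at day 14, against 4.14 and 2.36 CPM at day 0, whereas LINC02955 had 0.836 and 0.475 CPM at day 14, against 1.23 and 0.492 CPM at day 0. The difference between the guides in the change of LINC02955 was -5.00 ± 1.18 and did not pass (adjusted p = 0.143). B3GAT2, a glucuronyltransferase, rested on 1 library: it had 3.12 and 50.9 CPM at day 14, against 1.82 and 2.20 CPM at day 0, and without day 14 replicate 2 its log2 fold change was 0.64 and did not pass. The transcribed pseudogene CLUHP3 had 37.2 and 52.1 footprint CPM at day 14, against 22.2 and 19.9 CPM at day 0, with 32.2 and 32.2 RNA CPM against 29.4 and 29.7.

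**Figure D5:**
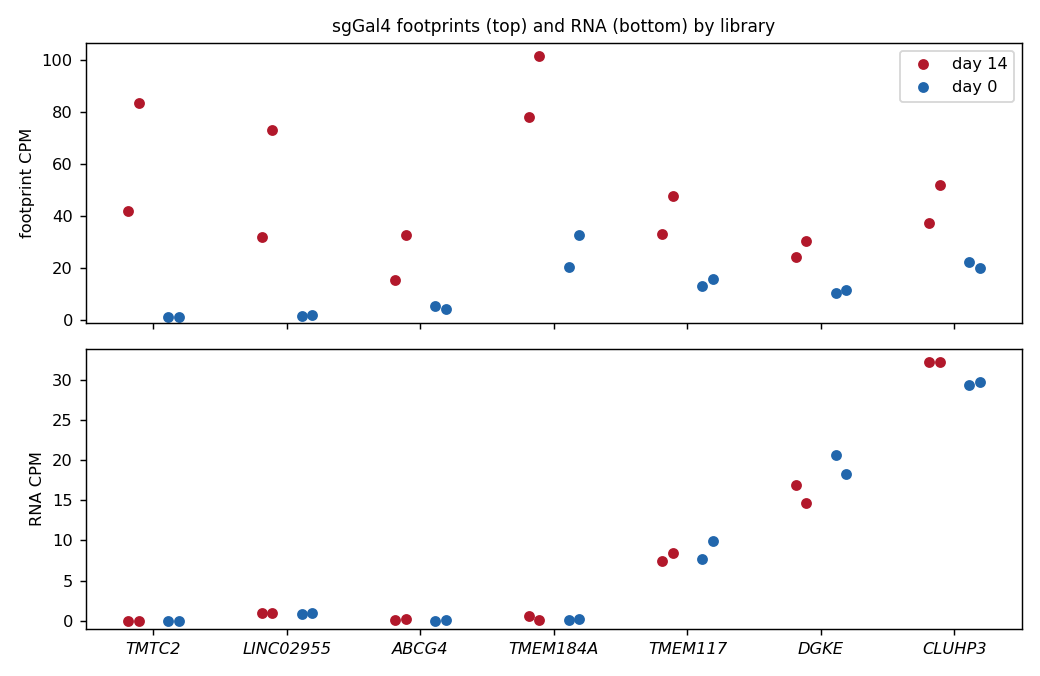
Footprint CPM (top) and RNA CPM (bottom) in each sgGal4 library at day 14 (red) and day 0 (blue) for 7 genes (x axis). Footprints at day 14 lie above day 0 for every gene, and RNA is under 1 CPM for the first 4.

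Among called genes outside the protein-coding class, 43 were higher and 40 lower. Copies of spliceosomal RNAs led the lower ones: RNU6ATAC5P had 4.63 and 4.76 CPM at day 14, against 18.6 and 13.9 CPM at day 0, RNU6ATAC7P had 5.54 and 5.30 CPM against 20.5 and 15.9, and RNU2-17P had 7.85 and 12.9 CPM against 29.4 and 34.0. These sequences have many near-identical copies, so a value per copy is uncertain. MIR320A, a microRNA gene, had 15.6 and 10.8 CPM against 48.5 and 24. RNU6ATAC5P and RNU2-17P passed in none of the 4 fits without 1 library, and RNU6ATAC7P and MIR320A in 2. ASNSP1, a pseudogene of ASNS, rose with its parent (1.07 ± 0.16) and may share its reads, and PLA2G10CP had 42.0 and 36.6 CPM at day 14, against 15.7 and 17.4 CPM at day 0. Such reads come through nuclease digestion and column purification and need not be ribosome footprints.

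The change over time was also set against that of sgDDX3 cells, whose libraries are separate. Among the 304 higher genes, 269 had a higher mean of log2(CPM + 0.5) at day 14 than at day 0 in sgDDX3 cells too, with a median difference of 0.61, against 0.86 in sgGal4 cells. Of the 184 lower genes, 167 were lower in sgDDX3 cells, with medians of -0.34 in sgDDX3 cells and -0.51 in sgGal4 cells. The genes were selected on the sgGal4 change, so the medians of the 2 guides were not tested against each other. The test of the difference in change, sgDDX3 minus sgGal4, called 14 genes higher and 7 lower (0.106% of 19780, with 0.0708% higher and 0.0354% lower), and 8 of the 488 called genes were among them. Of the 31 targets of ATF4, 30 had a difference below 0, with a median of -0.65 against 0.012 over all genes tested, and none passed. The sgGal4 change, above 0 for 30 of the 31 with a median of 0.35, is subtracted in this difference. The 2 results are therefore not separate, and the part of the difference that comes from the subtraction was not tested. ASNS had 170.3 and 257 CPM in sgDDX3 cells at day 14, against 163 and 170.2 CPM at day 0, and its difference between guides did not pass (adjusted p = 0.175).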

How the data were processed

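The authors deposited counts of reads for each gene as whole numbers without any scaling, in 1 table of footprints and 1 of RNA. Named in the submitters' processing notes are GRCh38, STAR 2.7.5a, Bowtie2 2.4.1, cutadapt 3.4 and DESeq2. Which tool counted the reads, its strand setting and how it treated shared reads were not given. From 58037 genes, 45 pseudoautosomal copies on chromosome Y were left out. Symbols (41445 of 57992 genes) came from a reference list of gene names, or from RefSeq where that list had none. Coordinates and promoters are those of RefSeq.

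Tests used R 4.3.3 with edgeR 4.0.16: a quasi-likelihood F-test on the 12 libraries of each assay, TMM factors, filterByExpr (minimum count of 10), Benjamini-Hochberg adjustment and calls at 0.05. The efficiency test used 24 libraries. DESeq2 1.42.0 was an alternative, with others on the filter, the normalization, the genes and the libraries. SE is the size of the log2 fold change divided by the square root of F, and ± gives it throughout. CPM are single libraries. The fits were tested on simulated data with 200 changed genes. Named genes were the 10 highest and 10 lowest called coding genes and the 4 highest and 4 lowest others with at least 10 CPM, up to 4 per list by smallest p, the 5 highest and lowest of the efficiency and guide tests, and DDX3X. Some of these genes are not reported here. Other genes named were chosen after their values were seen. Members and lists were chosen with earlier results of these data known.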

Additional observations from a re-analysis of the deposited data

Results flagged for a closer look

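The change of footprints from day 0 to day 14 differed between the guides, by the interaction of guide and day, for 10 genes described here with at least 10 CPM or in a described list. Values are log2 differences, sgDDX3 minus sgGal4. TMEM117 had -1.58 ± 0.22, with 28.1 and 30.4 CPM in sgDDX3 cells at day 14 against 32.2 and 31.4 CPM at day 0. Values above 0 were found for MIR320A (2.73), the snoRNA gene SNORD12B (2.38), the initiation factor EIF5B (1.86) and the secreted glycoprotein LGALS3BP (1.83). Values below 0 were also found for the transcription factor SOX5 (-1.35), IFRD1 (-1.07), the pseudogene TMSB4XP2 (-1.05), CHI3L2 (-0.96) and ODC1, the first enzyme of polyamine synthesis (-0.85). Of these, EIF5B, LGALS3BP, TMSB4XP2, CHI3L2, ODC1 and SNORD12B were not called over time in sgGal4 cells. The count of genes called by this test depended on 1 library: edgeR called none without sgDDX3 day 0 replicate 2, where 1443 genes had an unadjusted p under 0.05; with all libraries DESeq2 called 81.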

How the results depend on the processing

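All counts are of genes called at an adjusted p under 0.05, higher and lower together. The 488 calls of day 14 over day 0 were 1249 with no filter on low counts and 782 among protein-coding genes alone, and ranged from 43 to 337 when 1 library was left out. With only the 4 libraries compared, 262 were higher and 75 lower, a share of 77.7% higher against 62.3%, and 256 of the 488 were called. The share moved the other way without day 14 replicate 1, where higher genes were no longer the majority of calls. DESeq2 called 311 of the 461 with an adjusted p, and its size factors kept 475.

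Day 3 over day 0 gave 250 calls, 963 with no filter, 1204 with only the 4 libraries and 12 to 91 without 1 library. Day 14 over day 3 gave 112 calls, 692 with no filter, 191 with DESeq2, 46 among protein-coding genes, 272 with only the 4 libraries and 20 to 103 without 1 library. RNA gave 2971 calls, 4836 with only the 4 libraries and 983 to 1340 without 1 library. The efficiency test gave 18 calls, 84 with no filter, 5 among protein-coding genes, 47 with only the 8 libraries and 5 to 34 without 1 library. The test between guides gave 21 calls, 384 with no filter, 81 with DESeq2, 34 among protein-coding genes and 0 to 74 without 1 library. The causes were not tested, beyond the number of genes or libraries each setting changes.

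Of 127 called genes recomputed one by one, 23 to 72 passed without 1 library, 83 with only the 4 libraries, and none changed direction under any setting. A lone library in these fits is assumed to vary like those of other groups. Day 14 and day 0 libraries of called genes did not overlap, so a direction kept without 1 library is no sign of stability. Labels do not say that replicate numbers pair libraries; the number correlated at 0.274 between sgGal4 day 14 and day 0 and between -0.306 and 0.122 elsewhere. A fit with the replicate block gave 527 calls, 457 of them shared with the 488.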

Other observations

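Genes known to be induced by NF-kB, the transcription factor that tumour necrosis factor activates, form a group that was put together after their values were seen, so its counts are a description. Of 31 tested genes, 14 were called higher at day 14, TNFAIP8 was called lower and 16 did not pass, with a median log2 fold change of 0.70 over day 0 and 0.69 over day 3. TNF itself had 4.93 and 4.87 footprint CPM at day 14, against 0.152 and 0.129 CPM at day 0, from 49 and 45 reads at day 14 and 2 in each library at day 0 (ratio per total count 35.4, exact 95% counting interval 13.4 to 133). TRAF1, an adaptor of TNF receptors, had 3.62 and 3.79 CPM at day 14, against 0.380 and 0.194 CPM at day 0, and the receptor TNFRSF9 had 5.84 and 6.17 CPM against 0.532 and 1.23. The adhesion molecule ICAM1 had 111 and 102 CPM against 67.2 and 61.3, and the chemokine CXCL8 had 4.73 and 4.44 CPM against 1.22 and 1.16. Feedback regulators in the group included TNFAIP3 (2.38 ± 0.43) and BCL3 (0.79 ± 0.19), as log2 fold changes. RELB, a subunit of NF-kB, was also called higher (0.85 ± 0.21, edgeR adjusted p = 0.0499). NFKB1 (0.35 ± 0.11), NFKB2 (0.70 ± 0.19), NFKBIA (0.39 ± 0.10), REL (-0.04 ± 0.13) and RELA (-0.19 ± 0.13) did not pass in footprints. In RNA, NFKB2 (0.78) and NFKBIA (0.52) were called higher, and NFKB1, REL and RELA were not called. At day 3, TNF had 0.168 and 0.386 CPM, TNFRSF9 0.672 and 0.386, and ICAM1 70.0 and 61.5. RNA called 18 of 30 tested genes higher and 1 lower, in a fit where 7.7% of genes were called higher and 8.55% lower. In sgDDX3 cells TNF averaged 3.21 CPM at day 14, against 0.126 CPM at day 0, and TRAF1 3.4 CPM against 0.301 CPM. TNF, TRAF1, TNFRSF9 and IER3 were called in each fit without 1 library; the levels of TNF, TRAF1 and TNFAIP3 rest on few reads.

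Another group, also noticed after their values were seen, holds RNA-binding proteins of the nucleus. The 3 DBHS proteins of paraspeckles, EWSR1 and TAF15 were called higher. SFPQ had 502 and 533 CPM at day 14, against 316 and 296 CPM at day 0, NONO 298 and 291 against 220 and 188, and PSPC1 63.6 and 70.9 against 38.3 and 40.8. EWSR1 had 332 and 334 CPM at day 14, against 215 and 207 CPM at day 0, and TAF15 276 and 282 against 164 and 159. TAF15 was called in 3 of 4 fits without 1 library, EWSR1 in 2, PSPC1 and SFPQ in 1 and NONO in none. The log2 change of RNA was smaller than that of footprints in each of the 5 genes. Genes noticed after their footprint values were seen can show this through that choice alone. None of the 5 passed the test of translational efficiency.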
